A study of Mus musculus with 9 samples.

Results

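The genes described here encode the proteins that carry calcium out of the cytosol: the SERCA pumps of the endoplasmic and sarcoplasmic reticulum (Atp2a1, Atp2a2, Atp2a3), the PMCA pumps of the plasma membrane (Atp2b1, Atp2b2, Atp2b3, Atp2b4), the SPCA1 pump of the Golgi apparatus (Atp2c1) and the plasma membrane sodium-calcium exchanger NCX1 (Slc8a1). They were chosen by symbol, and all 9 were found among the 24393 genes of the count table and in the FPKM table. The pumps are P-type ATPases, which spend ATP to move calcium against its gradient, whereas the exchanger uses the sodium gradient. In beta cells, calcium that enters through voltage-gated channels triggers insulin release. It is then cleared by these transporters, and the SERCA pumps also keep the high luminal calcium that protein folding in the endoplasmic reticulum (ER) needs.

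The RNA came from hand-picked islets of female mice, which were cultured overnight before freezing. The 4 knockout (KO) libraries came from mice of the genotype Rip-cre; Ogt f/f, in which Cre, driven by an insulin promoter, removes the floxed Ogt gene in beta cells. The 5 libraries labelled WT have genotypes that name no Cre: 3 of the genotype Ogt f/f (WT replicates 2, 4 and 5) and 2 of the genotype Ogt f/+ (WT replicates 1 and 3). Run 1 held KO replicates 1 and 2 with WT replicates 1 to 3, and a later pool, called run 3 here, held KO replicates 3 and 4 with WT replicates 4 and 5. The age of the mice is not given in the labels. Nothing in the labels says that each library came from a separate animal, so the p-values reflect library-to-library spread, part of which may be technical. No control carries Cre alone, so effects of Cre and of Ogt loss cannot be told apart. Since Cre acts in beta cells and whole islets were sequenced, intact Ogt transcripts of other islet cells can remain in the KO libraries. Fewer cells of a type and less RNA per cell cannot be told apart in such bulk samples.

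Library totals lay between 3796043 and 6073537 counts, with the deeper libraries in run 3, and 9.62% to 28.5% of them fell on Rn45s, a ribosomal RNA precursor. Ogt, the deleted gene and so the check of the labels, averaged 29.5 ± 7.34 CPM (counts scaled to library size with TMM factors) in KO and 71.1 ± 11.9 CPM in WT (SD, n = 4 and 5), and every KO library lay below every WT library. Of the 10 beta cell markers tested, 4 fell and 0 rose in edgeR's test, where 9.18% of all tested genes fell and 9.84% rose. Their summed level was 42845 to 83074 CPM in KO and 47900.1 to 110232 CPM in WT. Ins2 alone averaged 40054 CPM in KO and 47410 CPM in WT, so this sum follows mostly hormone transcripts. The 6 markers of delta and PP cells summed to 3907 to 5510 CPM in KO and 2986 to 4028 CPM in WT, with 2 rises and 0 falls. The 12 acinar markers, none of them called by edgeR's test or by DESeq2 and 1 at an unadjusted p under 0.05, differed mainly between runs and between the libraries of run 1. They summed to 2020 and 389 CPM in the KO libraries of run 1, against 2336, 5965 and 4391 CPM in the WT libraries of run 1. In run 3 they summed to 80.1 and 230.2 CPM in KO and to 132 and 135 CPM in WT. Of the alpha cell markers, 2 of 6 rose, as did 1 of 6 tested fibroblast and stellate, 1 of 6 macrophage and 1 of 3 Schwann cell markers. The part of these marker differences in the values that follow was not tested. Where stated, the acinar level was fitted beside run and genotype, as the mean log2 CPM of the 12 acinar markers and not as their sum.

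Start regions of the plasma membrane pumps are shown because 2 of these genes rose in KO islets and the most abundant of them did not, so the sequences can be set beside the values that follow. Each is the RefSeq window (build GRCm38.p6) of 250 bases before to 50 after a transcript start, 5′ to 3′ on the gene's strand, with CpG dinucleotides in capitals. The Atp2b4 window lies at chr1:133753698-133753997 on the minus strand, the upstream-most of the 3 Atp2b2 windows at chr6:114042031-114042330 on the minus strand and the first of the Atp2b1 pair at chr10:98914392-98914691 on the plus strand.
Atp2b4: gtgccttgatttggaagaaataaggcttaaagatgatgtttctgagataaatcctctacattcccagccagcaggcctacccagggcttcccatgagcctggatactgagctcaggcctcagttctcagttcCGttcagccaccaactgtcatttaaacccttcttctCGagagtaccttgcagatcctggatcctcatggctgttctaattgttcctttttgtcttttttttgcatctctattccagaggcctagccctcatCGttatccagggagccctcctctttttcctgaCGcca
Atp2b2: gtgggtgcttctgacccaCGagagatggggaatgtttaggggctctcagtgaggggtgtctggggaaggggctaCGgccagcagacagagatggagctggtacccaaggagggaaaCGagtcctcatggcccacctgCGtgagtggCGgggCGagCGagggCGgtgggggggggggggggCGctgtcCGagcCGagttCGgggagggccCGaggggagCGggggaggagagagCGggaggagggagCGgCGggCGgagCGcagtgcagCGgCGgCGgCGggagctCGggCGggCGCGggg
Atp2b1: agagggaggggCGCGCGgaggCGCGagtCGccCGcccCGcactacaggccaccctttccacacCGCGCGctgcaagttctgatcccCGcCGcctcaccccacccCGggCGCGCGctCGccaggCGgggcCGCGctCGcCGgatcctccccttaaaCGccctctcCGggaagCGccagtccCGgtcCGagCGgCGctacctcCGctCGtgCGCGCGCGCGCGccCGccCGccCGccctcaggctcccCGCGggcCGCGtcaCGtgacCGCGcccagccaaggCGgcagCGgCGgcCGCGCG
The 3 printed windows differ in base composition. The Atp2b4 window has 4 CpG dinucleotides and 47.7% G or C, the Atp2b2 window 27 and 72.7%, and the Atp2b1 window 54 and 79.3%, against a median of 7 and 52.7% over 32851 RefSeq windows. The other Atp2b2 windows lie nearer that median, with 12 and 58.7% and with 8 and 54.0%, so the contrast with Atp2b4 depends on the window. The Atp2b4 window also lies well inside its gene, whose annotated 5′ end is at 133801041. The printed Atp2b2 and Atp2b1 windows lie near the 5′ ends of their genes, so starts of unlike position are compared. RefSeq windows were matched for 7 of the 9 genes, the others being Atp2a2 and Atp2b3. The ER stress element, written as CCAAT followed after 9 bases by CCACG on either strand, was in none of these 11 windows and in 0.119% of all windows. CCACG alone was in 3 of the 11 windows, of Atp2a1, Atp2b2 and Atp2c1, against 32.8% of all windows, and CCAAT alone in that of Atp2a1, against 37.4%. The element TGACGTGG, again on either strand, was in 0 of the 11 windows and in 0.676% of all windows. The full ER stress element and TGACGTGG are so rare that their absence from 11 windows does not set these genes apart. The Atp2a2 start was not searched.

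Of the 9 genes, 8 passed the filter on low counts and were tested with edgeR's quasi-likelihood test, with sequencing run as a term and p-values adjusted over all 12501 tested genes. At an adjusted p under 0.05, which is what "called" means here, 4 of the 8 were called, where 19.0% of all tested genes were. Of these, 2 rose in KO islets (Atp2b4 and Atp2b2), where 9.84% of all tested genes rose. Likewise 2 fell (Atp2a2 and Atp2c1), where 9.18% of all tested genes fell. The median log2 fold change (KO over WT) of the 8 was −0.048, against 0.017 over all tested genes. The fall of Atp2c1 held in few of the alternative analyses, as described with that gene. In 4 of the 8, the same genes, KO and WT did not overlap within either run, in the same direction in both, as in 22.9% of all tested genes. Over all 9 libraries 2 did not overlap, as in 11.1% of all tested genes. Fitted in run 1 alone, 2 of the 8 were called (Atp2a2 and Atp2b4), against 7.78% of all tested genes. In run 3 alone it was 3 of the 8 (these and Atp2b2), against 8.86%.

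**Figure D1:**
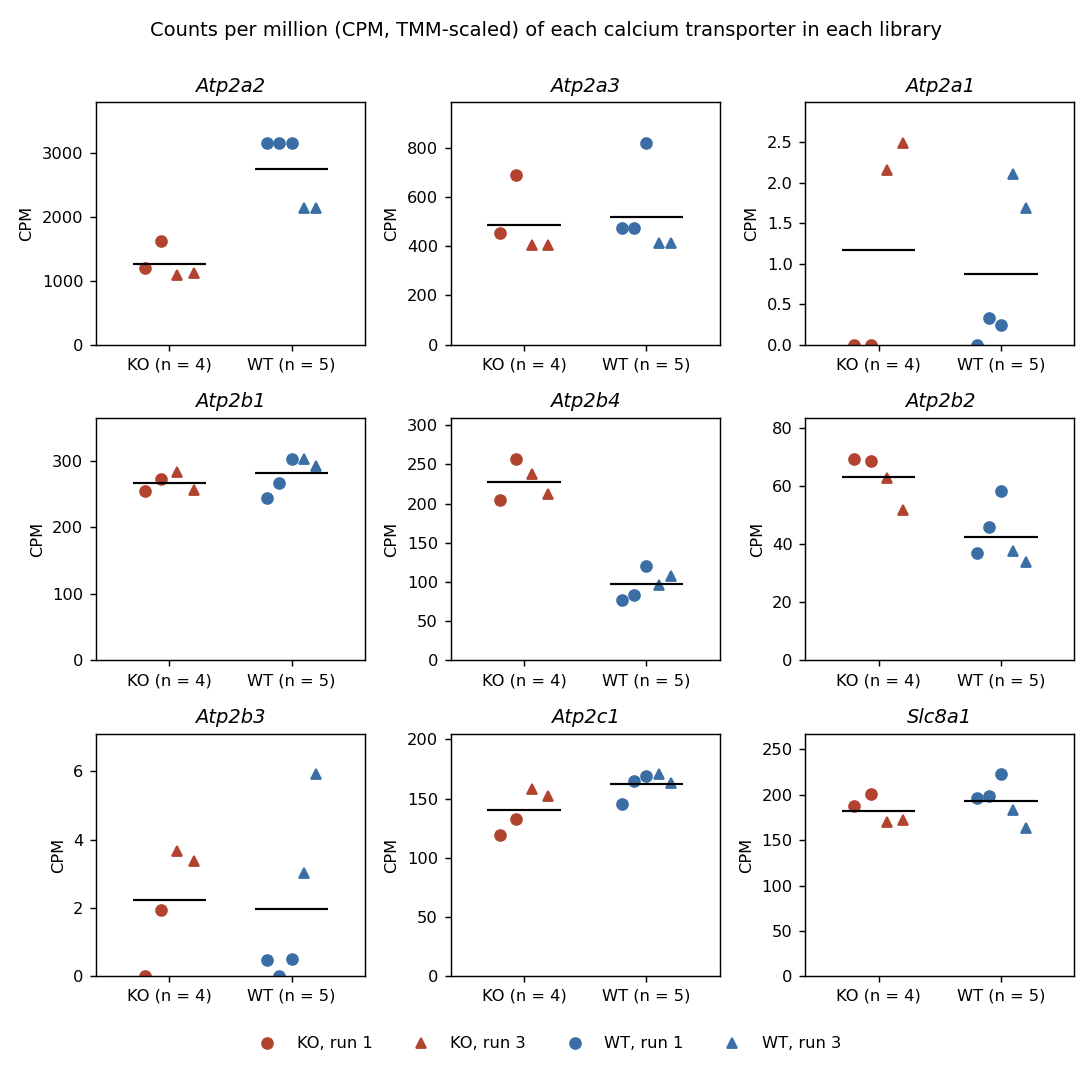
CPM of each gene in each library, KO left of WT, with circles for run 1, triangles for run 3 and a line at the group mean. The panels have separate axes that start at 0. Atp2a2 is lower in every KO library (1097 to 1630 CPM) than in any WT library (2142 to 3163 CPM), and Atp2b4 is higher (205 to 258 CPM in KO, 77.7 to 121 CPM in WT).

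Atp2a2 encodes SERCA2, the pump that fills the ER store in most cell types. It stood at 1198 and 1630 CPM in the KO libraries of run 1, against 3160, 3163 and 3157 CPM in the WT libraries of run 1. In run 3 it stood at 1097 and 1119 CPM in KO, against 2142 and 2145 CPM in WT. The WT libraries of a run lay close together, the KO libraries were all lower, and the groups did not overlap over the 9 libraries, a separation seen with KO lower in 5.13% of all tested genes. The log2 fold change was −1.06 ± 0.08 (SE; 95% interval −1.23 to −0.90) and passed edgeR's test at an adjusted p of 1.65e-08, a level in KO of 0.478 times that in WT. It was −1.18 within run 1 and −0.96 within run 3, and the test of the difference between runs gave an adjusted p of 0.897. The acinar markers summed to 230.2 CPM or less in every library of run 3. In run 1 their sum was lower in both KO libraries than in any WT library. Once the acinar level was fitted beside run and genotype, the log2 fold change was −1.10. The part of acinar tissue in the Atp2a2 change was not tested. Atp2a2 spans 122453513 to 122502225 of chromosome 5, minus strand (GRCm38, GENCODE M21), and the 3 annotated genes that overlap it are not protein-coding.

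Atp2a3 encodes SERCA3, a pump with lower calcium affinity that is found in beta cells, endothelial cells and blood cells. It stood at 454 and 687 CPM in the KO libraries of run 1, against 474, 472 and 820 CPM in WT. In run 3 it stood at 405 and 403 CPM in KO, against 414 CPM in both WT libraries. KO replicate 2 and WT replicate 3 were the high libraries of run 1, where the groups overlapped, and in run 3 both KO libraries lay just below both WT libraries. Its log2 fold change of −0.042 ± 0.21 (SE) had an interval of −0.53 to 0.45 and was not called (adjusted p = 0.916). Its sign turned without WT replicate 3 (0.12), without KO replicate 1 (0.072) and with the Ogt f/f controls alone (0.080). The same high libraries had the highest sums of the 10 beta cell markers in run 1, with 83074 CPM in KO replicate 2 and 110232 CPM in WT replicate 3, against 55843 CPM in the other KO library of run 1 and 64834 and 64013 CPM in the other WT libraries. They also had the highest sums of the 5 endothelial markers in run 1, with 501 CPM in KO replicate 2 and 406 CPM in WT replicate 3, against 217 to 253 CPM in the other libraries of run 1. The beta cell sum is mostly hormone transcripts, as given above, and the part of these cell types in the Atp2a3 level was not tested. Atp2a3 spans 72961169 to 72993044 of chromosome 11, plus strand, with no overlapping gene annotated.

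Atp2a1 encodes SERCA1, the pump of fast skeletal muscle. It had 0 counts in both KO libraries of run 1, against 0, 1 and 1 counts in the WT libraries. In run 3 it had 13 and 17 counts in KO, against 14 and 10 in WT. It did not pass the filter on low counts and was not tested. The limit that 3 counts allow was 0.44 to 0.97 CPM per library, and the libraries of run 1 were all below their own limit. Its FPKM was listed at 0 in KO replicate 3 and WT replicate 4 although the count table held 13 and 14 counts for them, so the deposited tables differ for this gene. Of the 5 markers of skeletal and smooth muscle, 3 were tested and none was called, with 0 at an unadjusted p under 0.05 and 0 called by DESeq2. The list mixes both kinds of muscle and 2 of its genes averaged under 1 CPM, so it says little about skeletal muscle alone. Atp2a1 spans 126445858 to 126463108 of chromosome 7, minus strand, and is overlapped by Rabep2 on the other strand.

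The balance between the reticulum pumps shifted with the fall of Atp2a2. FPKM, fragments scaled to transcript length and library size, allows levels of genes of different length to be set side by side. Atp2a2 made up 71.6 ± 1.37% of the summed SERCA FPKM in KO and 83.9 ± 3.23% in WT (SD, n = 4 and 5), and Atp2a3 28.4 ± 1.38% in KO and 16.1 ± 3.24% in WT. The Atp2a3 share was 27.2% to 30.3% in KO and 13.1% to 21.1% in WT, so the groups did not overlap. The ratio of Atp2a3 to Atp2a2 counts within a library, which does not depend on how libraries are scaled, was 0.360 to 0.422 in KO and 0.149 to 0.260 in WT. The log2 ratio was 1.15 higher in KO within run 1 and 0.91 higher within run 3. The summed SERCA FPKM was 359 ± 68.0 in KO and 672 ± 109 in WT. As Atp2a3 was not called and Atp2a1 was too low to be tested, these values largely restate the fall of Atp2a2. The shares, ratios and sums are descriptions and were not tested.

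**Figure D2:**
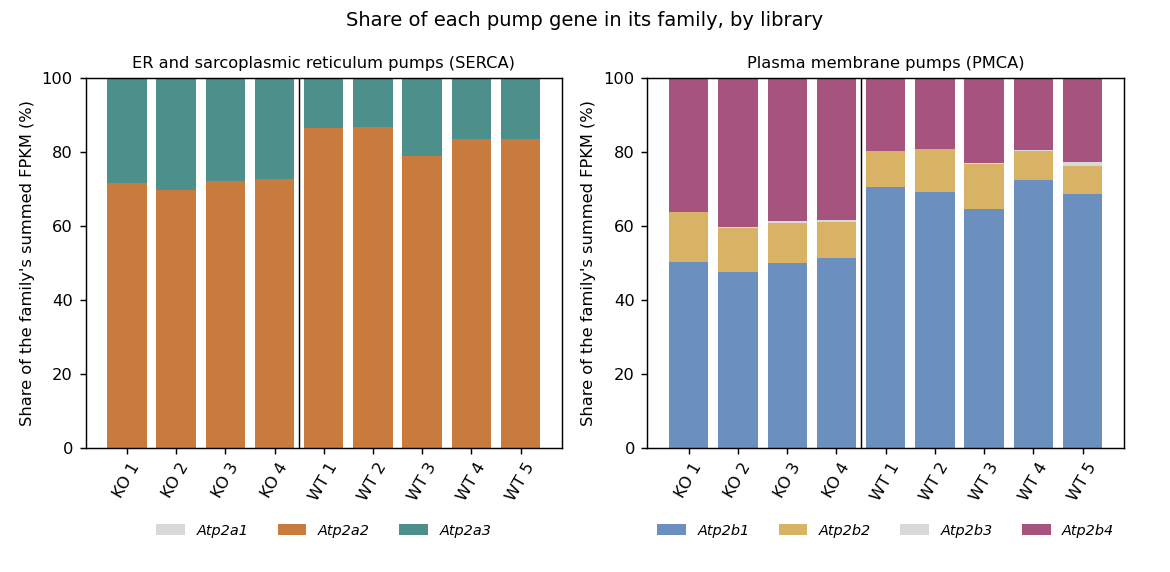
Share in percent of each pump gene in the summed FPKM of the SERCA genes (left panel) and of the PMCA genes (right panel), 1 bar per library, with KO libraries left of the line and WT libraries right of it. Atp2a3 takes 27.2% to 30.3% of the SERCA sum in KO and 13.1% to 21.1% in WT, and Atp2b4 36.1% to 40.1% of the PMCA sum in KO and 19.2% to 23.0% in WT.

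Atp2b4 encodes PMCA4, a plasma membrane pump that is activated by calmodulin. It stood at 205 and 258 CPM in the KO libraries of run 1, against 77.7, 83.2 and 121 CPM in WT. In run 3 it stood at 238 and 213 CPM in KO, against 95.9 and 108 CPM in WT. Every KO library lay above every WT library, as in 5.97% of all tested genes. On the log2 scale it rose by 1.22 ± 0.12 (SE; 95% interval 0.97 to 1.48; adjusted p = 9.07e-06). It was 1.28 within run 1 and 1.13 within run 3, and it was called in all 22 alternative analyses (1.10 to 1.32). Atp2b4 spans 133699457 to 133801041 of chromosome 1, minus strand, and the window printed above is a start inside that span.

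Atp2b2 encodes PMCA2, a fast plasma membrane pump best known from neurons and hair cells. It stood at 69.5 and 68.6 CPM in the KO libraries of run 1, against 37.1, 46.0 and 58.4 CPM in WT. Run 3 gave 63.0 and 51.7 CPM in KO, against 37.6 and 34.0 CPM in WT. KO was above WT within each run, but KO replicate 4 lay below WT replicate 3 of the other run. It rose by 0.61 ± 0.12 on the log2 scale (SE; 95% interval 0.36 to 0.86; adjusted p = 0.00111). It was 0.53 within run 1 and 0.67 within run 3. Without the run term it was 0.57 and was not called (adjusted p = 0.0665). Atp2b2 spans 113743831 to 114042613 of chromosome 6, minus strand, and 2 of the 3 genes that overlap it lie on the other strand. GENCODE transcripts of Atp2b2 and Atp2b3 share 7 stretches of 50 bases, 0.0550% of those of Atp2b2, so few reads of that length could be assigned to either gene.

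Atp2b1 encodes PMCA1, the plasma membrane pump found in nearly all cells. It stood at 254 and 272 CPM in the KO libraries of run 1, against 244, 266 and 303 CPM in WT. Values in run 3 were 283 and 256 CPM in KO, against 303 and 292 CPM in WT. The groups overlapped in run 1, and in run 3 both KO libraries lay below both WT libraries. The fitted log2 fold change was −0.089 ± 0.075 (SE) and was not called (adjusted p = 0.451), and its interval of −0.24 to 0.067 does not reach the value of Atp2b4. Atp2b1 spans 98914406 to 99026143 of chromosome 10, plus strand.

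Atp2b3 encodes PMCA3, a pump mainly of neurons. It had 0 and 8 counts in the KO libraries of run 1, against 2, 0 and 2 counts in WT, and in run 3 22 and 23 counts in KO, against 20 and 35 in WT. Its log2 fold change of 0.082 (KO over WT) had an interval of −1.08 to 1.24, and changes within that range were not resolved at these counts. The fitted difference of run 3 over run 1 was 2.64 on the log2 scale for Atp2b3 (adjusted p = 0.00181). Libraries of run 3 had counts for 20069 to 21067 genes, against 14485 to 15136 genes in run 1, and the part of this in the values of rare transcripts such as Atp2b3 and Atp2a1 was not tested. Atp2b3 spans 73503086 to 73571005 of chromosome X, plus strand.

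Within the plasma membrane pumps the share of Atp2b4 was larger in KO. Atp2b4 made up 38.3 ± 1.68% of the summed PMCA FPKM in KO and 20.8 ± 1.89% in WT (SD, n = 4 and 5), and Atp2b1 49.8 ± 1.62% in KO and 69.1 ± 2.84% in WT. Atp2b2 made up 11.6 ± 1.55% in KO and 9.88 ± 2.01% in WT, with overlap between the groups. The ratio of Atp2b4 to Atp2b1 counts in a library was 0.806 to 0.945 in KO and 0.313 to 0.400 in WT, without overlap. With Atp2b1 not called, this ratio and the shares largely restate the rise of Atp2b4, and they were not tested. Summed PMCA FPKM was 70.2 ± 6.10 in KO and 54.0 ± 7.10 in WT. Summed over the family, the plasma membrane pumps thus had more FPKM in KO, from 62.7 to 77.3, against 44.1 to 59.8 in WT, whereas the reticulum pumps had less, from 323 to 461, against 555 to 793 in WT.

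**Figure D3:**
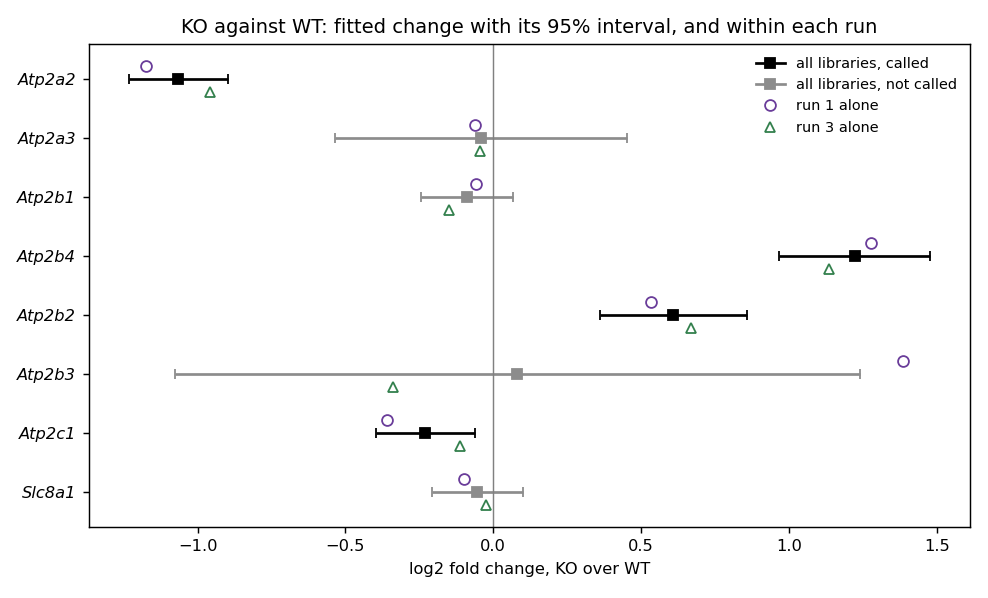
Log2 fold change (KO over WT) of the 8 tested genes. Squares with bars give all libraries with the 95% interval, black where called and grey where not, open circles give run 1 alone and open triangles run 3 alone. Atp2a2 lies at −1.06, Atp2b4 at 1.22 and Atp2b2 at 0.61, with both runs on the same side, while the interval of Atp2b3 spans −1.08 to 1.24.

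Atp2c1 encodes SPCA1, which carries calcium and manganese into the Golgi apparatus. It stood at 119 and 133 CPM in the KO libraries of run 1, against 146, 165 and 169 CPM in WT. The run 3 libraries had 158 and 153 CPM in KO, against 170.5 and 163 CPM in WT. KO was below WT within each run, but by little in run 3, and KO replicate 3 lay above WT replicate 1. Its log2 fold change of −0.23 ± 0.080 (SE; 95% interval −0.40 to −0.063) had an adjusted p of 0.0486, just past the threshold. The call was lost in 17 of 22 alternative analyses, among them edgeR without robust estimation (adjusted p = 0.0633) and the removal of any KO library or of WT replicates 2, 3 or 4. The fall of Atp2c1 was −0.36 within run 1 and −0.11 within run 3, neither of them called. Atp2c1 spans 105403539 to 105527319 of chromosome 9, minus strand, and the protein-coding gene Aste1 overlaps it on the other strand. No source used here says whether counting was by strand, so reads of the pair may have been mixed.

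Slc8a1 encodes NCX1, which exchanges sodium for calcium across the plasma membrane. It stood at 187 and 201 CPM in the KO libraries of run 1, against 196, 199 and 223 CPM in WT. Run 3 gave 170.3 and 172 CPM in KO, against 183 and 163 CPM in WT. The groups overlapped in both runs. The log2 difference was −0.054 ± 0.074 (SE) and was not called (adjusted p = 0.663), and with an interval of −0.21 to 0.0997 a change as large as that of Atp2b4 or Atp2a2 was outside its interval. The ratio of Slc8a1 to Atp2b1 counts was 0.603 to 0.738 in KO and 0.560 to 0.802 in WT. Slc8a1 spans 81373105 to 81738377 of chromosome 17, minus strand, with an overlapping protein-coding gene annotated on the other strand.

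In 8 exact two-sided tests that do not use edgeR's count model, genotype labels were permuted within runs. The statistic was the run-adjusted difference in log2 CPM. Atp2a2, Atp2b4 and Atp2c1 each gave an exact p of 0.0167, which no result of the 60 arrangements can go below, and Atp2b2 gave p = 0.0333 in the same exact permutation test. The other 4 genes gave exact p-values between 0.300 (Atp2b1) and 0.817 (Atp2b3). These exact p-values are unadjusted, and genes at the floor cannot be ranked by them.

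On the scale of levels, Atp2a2 was the most abundant of these genes in both genotypes, with 256 ± 43.2 FPKM in KO and 563 ± 90.3 FPKM in WT (SD, n = 4 and 5). Atp2a3 followed with 102 ± 24.9 FPKM in KO and 108 ± 33.1 FPKM in WT, apart from its neighbours in the order in every library. Atp2b1 stood at 34.9 ± 2.91 FPKM in KO and 37.3 ± 4.73 FPKM in WT. Atp2c1 stood at 33.6 ± 5.05 FPKM in KO and 40.3 ± 4.27 FPKM in WT. In FPKM these genes did not differ beyond their spread in either genotype. In CPM per kilobase of transcript, Atp2b1 averaged 39.4 ± 5.73 in KO and 38.0 ± 7.33 in WT. Atp2c1 was lower on that measure, with 26.5 ± 6.46 in KO and 27.6 ± 4.43 in WT. How Atp2b1 and Atp2c1 compare thus depends on the measure. With TMM factors the KO and WT means of Atp2b1 were in the other order, at 266 CPM in KO and 282 CPM in WT. Atp2b4 stood at 26.9 ± 3.22 FPKM in KO, where its range overlapped that of Atp2c1, and at 11.3 ± 2.31 FPKM in WT, where its range overlapped that of Slc8a1. Slc8a1 stood at 9.05 ± 0.282 FPKM in KO and 9.48 ± 0.566 FPKM in WT. Atp2b2 followed with 8.08 ± 0.871 FPKM in KO and 5.30 ± 1.17 FPKM in WT, below Slc8a1 in every library. Atp2b3 and Atp2a1 were at 0.509 FPKM or less in every library. So Atp2b4 ranked clearly above Slc8a1 in KO, with non-overlapping ranges, and not in WT.

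**Figure D4:**
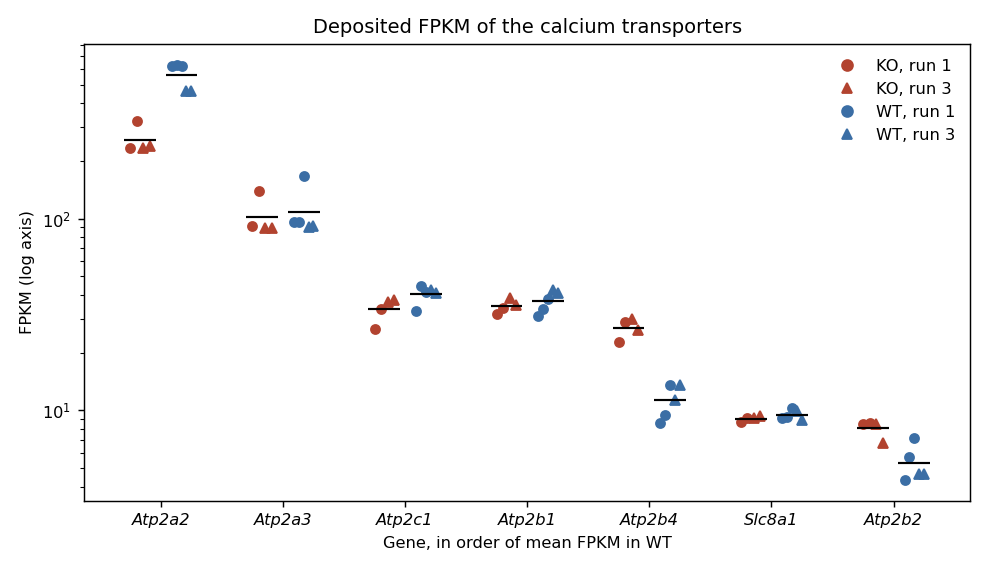
Deposited FPKM on a log axis for 7 of the genes, in order of their mean in WT, with KO left of WT, circles for run 1, triangles for run 3 and a line at the mean. Atp2b3 and Atp2a1, which are listed at 0 in several libraries, are not drawn. Atp2a2 heads the order in both genotypes (256 FPKM in KO and 563 FPKM in WT).

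The 2 control genotypes and the runs were compared as well. Between Ogt f/+ and Ogt f/f controls edgeR's test called 0 of the 12501 genes, with 393 at an unadjusted p under 0.05, and the log2 difference of the 8 genes (f/+ over f/f) lay between −0.50 (Atp2b3) and 0.32 (Atp2a3). Both f/+ libraries were in run 1, whose only f/f control was WT replicate 2, the library with the highest acinar marker sum and Rn45s share. The comparison rests on that library and, through the run term, on the f/f controls of run 3, so 0 calls do not show that the control genotypes are alike. The difference of the genotype effect between runs was called for 0 of 12501 genes, with 711 at an unadjusted p under 0.05, and the lowest unadjusted p among the 8 was 0.131, for Atp2c1. Between run 3 and run 1, 4 of the 8 were called, against 31.6% of all tested genes. Atp2b3 was higher in run 3, as given above. Atp2a2 (−0.46), Atp2b2 (−0.34) and Slc8a1 (−0.22) were lower in run 3 on the log2 scale.

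Other genes that act on these transporters or share their work are described by counts, to be read beside the 9.84% of all tested genes that rose and the 9.18% that fell. Among SERCA regulators, 9 of 11 were tested, 1 rose and 2 fell, with a median log2 fold change of −0.22 against 0.017 over all tested genes. Mrln, myoregulin, an inhibitor of SERCA in muscle, rose to 12.8 CPM in KO, against 6.78 CPM in WT (log2 fold change 0.85, adjusted p = 0.0162). The rise of Mrln was 1.38 within run 1, where it was called, and 0.46 within run 3, where it was not. Its KO and WT libraries overlapped over both runs together, though not within either run. The ER lectin chaperone Canx, calnexin, fell by 0.39, and Pdia3, the disulfide isomerase that works with calnexin and calreticulin, fell by 0.32. The SERCA inhibitors Pln, phospholamban (1.05 CPM in KO and 0.526 CPM in WT), and Sln, sarcolipin (0.249 CPM in KO and 0 counts in WT), were too low to be tested. Of 9 tested genes in a list of calcium-binding proteins, mostly of the ER lumen (11 in the table), 4 fell and 2 rose, with a median of −0.30. Hsp90b1, the chaperone GRP94, fell by 0.48. Rcn1, reticulocalbin 1, rose by 0.59 and Sdf4, the calcium-binding protein Cab45 of the Golgi lumen, rose by 0.30. The median of the list was thus below 0 although Rcn1 and Sdf4 rose.

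The 6 partners of the plasma membrane pumps were all tested, and 3 rose and 0 fell, with a median of 0.31. Among those that rose were Calm3 (0.32, adjusted p = 0.00234), which encodes calmodulin, the activator of PMCA, and Bsg (0.30, adjusted p = 0.00383), which encodes basigin, an accessory subunit of PMCA. Calm2, which also encodes calmodulin, stood at 308 CPM in KO and 282 CPM in WT and was not called (0.099). Nptn, neuroplastin, the other accessory subunit, stood at 99.5 CPM in KO and 86.6 CPM in WT and was not called (0.18). The changes of Calm3 and Bsg were smaller than that of Atp2b4.

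Among the genes of the sodium-potassium pump, which keeps the sodium gradient that NCX1 uses, 9 of 13 were tested, 2 rose and 0 fell (median 0.28). Fxyd3, a regulatory subunit, rose to 5.00 CPM in KO, against 1.73 CPM in WT (log2 fold change 1.41, adjusted p = 0.0352). The rise of this low-count gene was 2.02 within run 1 and 0.78 within run 3, neither of them called. Of 8 tested genes of mitochondrial calcium uptake none was called (median −0.080), with 0 at an unadjusted p under 0.05 and 0 called by DESeq2, and the lowest p was that of Smdt1, the EMRE subunit of the uniporter, at −0.29. Of the other exchangers and SPCA2, 3 of 9 were tested and none was called (median −0.093), again with 0 at an unadjusted p under 0.05 and 0 by DESeq2. The one with the lowest p was Slc24a2, a sodium-calcium-potassium exchanger, with 223 CPM in KO and 238 CPM in WT. Slc24a2 was of the same order as Slc8a1 in CPM, which is not per length. Of 12 genes of calcium release and store-operated entry, all tested, 1 rose and 0 fell (median 0.21). The rise was that of the entry channel Orai2 (0.71, adjusted p = 0.00533). In that list 6 of the 12 were at an unadjusted p under 0.05 in edgeR's test, and DESeq2 called 2 higher and 0 lower. Of 24 other P-type ATPases, 15 were tested and 0 were called by edgeR's test or by DESeq2, with 3 at an unadjusted p under 0.05 (median −0.12). Atp9b, a flippase-like ATPase of the Golgi, had the lowest p in that list, at −0.37 (adjusted p = 0.0555).

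**Figure D5:**
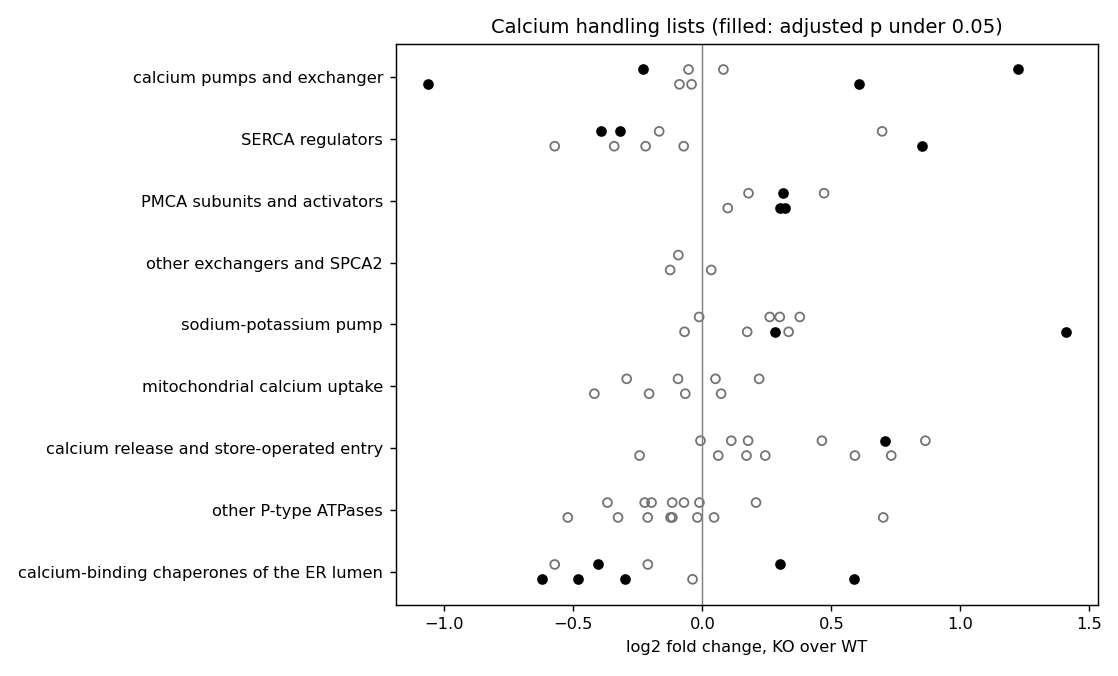
Log2 fold change (KO over WT) of every tested gene in the calcium pump and exchanger group and in 8 lists of calcium handling and P-type ATPase genes, filled where called. Atp2a2 (−1.06) and Atp2b4 (1.22) lie at the outside of the first row, while none of the 15 tested other P-type ATPases is filled.

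Likeness to each called gene was measured as the root mean square difference of log2 CPM, centred within runs, over the 9 libraries. The candidates were 7391 genes whose average log2 CPM reached 4, with predicted genes and Rik clones passed over. The 9 genes described here were passed over as well. Named below are the candidates with the smallest differences. For Atp2a2 these were Abhd17c (0.099), the guanine nucleotide exchange factor Dock5 (0.12) and Edem1 (0.13), which acts in the degradation of misfolded ER glycoproteins, where the median gene differed by 0.56. For Atp2b4 they were Plekhg6 (0.13), the phosphodiesterase Pde3a (0.16) and Klhdc4 (0.17), against a median of 0.66. For Atp2b2 they were the tyrosine phosphatase Ptpn13 (0.094), Zfp92 (0.10) and Sh3rf1 (0.10), against a median of 0.39. For Atp2c1 they were Ift74 (0.043), Ankrd40 (0.048) and Sephs2 (0.054), against a median of 0.23. Of these, Ift74 and Sephs2 were not called themselves. All 12 moved in the same direction as the gene they resemble, which the choice by likeness fixes.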

How the data were processed

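Islet RNA was extracted with DNase treatment and made into stranded total RNA libraries for low input, per the labels' protocols. The authors deposited raw read counts per gene symbol and FPKM values, 1 column per library in each table. Per the submitters' processing notes, which assign no roles, the tools included Bowtie2 2.2.4.0 and Cuffdiff 2.2.1 besides edgeR and FastQC, with mm10 as build. The counting tool and its use of strand are not given in the sources used here. From both tables, 27 symbols turned into dates were left out (0.133% to 0.186% of counts).

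From the counts, edgeR 4.0.16 in R 4.3.3 was run with TMM scaling, its default low-count filter and robust quasi-likelihood fits of run and genotype, with Benjamini-Hochberg adjustment. Standard errors come from the fold change and its F statistic, and log2 CPM used a prior count of 2. The fit was tested on simulated data. Replicate pairs gave chi-square values of 4.11 to 72.8 per degree of freedom, so no library was counted as a duplicate. Alternatives used DESeq2 1.42.0, limma 3.58.1 on log2(FPKM + 1) or log2(FPKM + 0.1) with or without a minimum mean of 1 FPKM, other scaling, filters, covariates and left-out libraries. Genes named beside the 9 were the called members of each list with the 3 lowest p, or the 1 with the lowest p where none was called, and the 3 nearest genes by likeness. Of these, 2 are not reported here. Calm2, Nptn, Pln and Sln were named after their values were seen, and Rabep2 and Aste1 for their overlap. The members, lists and rules were chosen with earlier results of these data known. Counts limit the precision of genes at a few CPM, and intervals and floors cover counting or library spread only.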

Additional observations from a re-analysis of the deposited data

Results flagged for a closer look

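Atp2a3 in WT replicate 3 stood at 820.2 CPM, far above the other 4 WT libraries (414 to 474 CPM). It was the only outlying library among 16 groups of values tested. Chance gives about 1 in 20 such groups, so 1 in 16 is near that rate. The log2 fold change of Atp2a3 was 0.12 without that library and −0.042 with it, called in neither case. WT replicate 3 also had the highest beta cell marker sum (110232 CPM), and the part of this in the Atp2a3 level was not tested.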

How the results depend on the processing

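Atp2a2 and Atp2b4 kept their direction and call in all 22 alternatives, with log2 fold changes of −1.14 to −0.96 and of 1.10 to 1.32. Over all genes 2377 were called, against 705 without the run term, 1476 with the acinar covariate and 1300 on log2(FPKM + 1) with no filter. In the model without the run term 1 of the genes described here was called higher, since Atp2b2 lost its call (0.57). Only 1 was called lower, Atp2a2, without the run term, with no low-count filter, with only Ogt f/f controls, with acinar level added, without the WT library with the most Rn45s (the ribosomal RNA precursor) in each run, and in each of the 3 FPKM fits. This was also so in 2 alternatives chosen after seeing the data, without robust estimation and without WT replicate 2 and KO replicate 2, the acinar extremes of run 1. Leaving out single libraries gave 1 to 2 lower, since Atp2c1 lay at −0.28 to −0.17, with adjusted p-values of 0.0357 to 0.201. Of the genes not called, Atp2a3 was at 0.080 with the f/f controls alone and between −0.18 and 0.12 without single libraries. Atp2b3 was at −0.29 with the acinar covariate, at −0.52 without the acinar extremes, at 0.44 without the WT libraries with the most Rn45s, at 0.37 with DESeq2 and between −0.48 and 0.30 without single libraries. The causes were not tested. Ratios between the genes moved by less than their spread. Scaled to library totals without TMM factors and per kilobase of transcript, counts put Atp2c1 at 27.6 in WT, against 40.3 FPKM. The rare Atp2a1 and Atp2b3 were at 0.263 and 0.453 in WT on that measure, against 0.0632 and 0.139 FPKM. Atp2c1 was then below Atp2b1 in WT (38.0), whereas its mean FPKM in WT was above that of Atp2b1. In KO its mean per kilobase was 26.5, below Atp2b1 (39.4) and, within the spread, below Atp2b4 (28.9). No paired analysis was possible because the replicate numbers only name libraries in accession order and the labels tie none of them across genotypes. Depth limits Atp2a1 and Atp2b3, at 35 counts or fewer.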
